A study of Mus musculus with 9 samples.

Results

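Classical cadherins and protocadherins are calcium-dependent adhesion molecules of the cell surface, and the values of 10 of their genes were compared among the regions of the mouse tail. The genes were chosen by name, with earlier results of these data known, and every array probe annotated to one of them was taken, whatever its value. They are Cdh1, Cdh2, Cdh3, Cdh4, Cdh6, Cdh11, Pcdh7, Pcdh8, Pcdh18 and Pcdh19, with 24 probes among the 45281 of the array, which names 19057 genes in all. The chordoneural hinge (CNH), which holds axial progenitors, the tailbud mesoderm (TBM) and the presomitic mesoderm (PSM), from which somites bud, were taken from the tails of E10.5 mouse embryos, with no mutation or treatment named in the labels. Each region was measured on 3 Illumina Ref6v2 BeadArrays, 9 in all, with replicate numbers 1 to 3, from RNA of pooled pieces. Each region had 2 biological replicates and 1 technical replicate by the methods, and the strains were CD1 and C57Bl/6J, but the labels do not say which array was technical or from which strain it came. The fits count 3 arrays a region, so p-values measure the spread between these arrays and may be too small. Over the tested probes, replicates 1 and 2 of a region correlated at 0.994 to 0.995, and each of them with replicate 3 at 0.821 to 0.866.

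In textbook terms, a classical cadherin binds a like cadherin on the next cell through its outer domains and holds the actin skeleton through catenins inside. Epithelia are known for Cdh1, and mesoderm and neural tissue for Cdh2, and a shift from the first to the second accompanies the making of mesoderm. Protocadherins have a related outer part and weaker binding, and lack the catenin site. Pcdh8, also called paraxial protocadherin, is known from the segmenting paraxial mesoderm, where its frog and fish relatives shape cell movements, and Pcdh19 acts together with Cdh2 in zebrafish.

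The start regions of the 3 genes below are printed because they are the ones with a sequence in the RefSeq promoter table whose signal differed most between regions: Pcdh19 and Pcdh8 were brightest in the PSM and Cdh6 was dimmest there. Each runs from 250 bases before to 50 bases after the start that the table uses, 5′ to 3′ on the gene's own strand, which is the minus strand in each case, on build GRCm38.p6. The regions are chrX:133688944-133689243 for Pcdh19, chr14:79771263-79771562 for Pcdh8 and chr15:13173626-13173925 for Cdh6. The start used is the outer end of the annotated gene for Pcdh8, lies 51 bases inside it for Pcdh19 and lies 2732 bases inside it for Cdh6, so the Cdh6 sequence surrounds an internal start. Capitals mark matches, on either strand, to CANNTG (the E-box letters), CCAAT and TATAAA, which do not overlap here.
Pcdh19: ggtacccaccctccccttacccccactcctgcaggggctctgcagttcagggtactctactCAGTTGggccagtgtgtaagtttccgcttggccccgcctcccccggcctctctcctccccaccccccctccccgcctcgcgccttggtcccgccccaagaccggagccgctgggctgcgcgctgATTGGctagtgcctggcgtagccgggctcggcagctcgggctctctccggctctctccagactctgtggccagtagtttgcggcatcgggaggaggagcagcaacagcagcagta
Pcdh8: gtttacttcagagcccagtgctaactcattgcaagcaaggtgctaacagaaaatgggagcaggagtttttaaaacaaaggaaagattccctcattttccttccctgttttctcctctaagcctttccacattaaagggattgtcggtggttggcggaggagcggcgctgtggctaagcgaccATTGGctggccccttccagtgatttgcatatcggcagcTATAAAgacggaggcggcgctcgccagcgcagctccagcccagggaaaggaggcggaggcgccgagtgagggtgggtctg
Cdh6: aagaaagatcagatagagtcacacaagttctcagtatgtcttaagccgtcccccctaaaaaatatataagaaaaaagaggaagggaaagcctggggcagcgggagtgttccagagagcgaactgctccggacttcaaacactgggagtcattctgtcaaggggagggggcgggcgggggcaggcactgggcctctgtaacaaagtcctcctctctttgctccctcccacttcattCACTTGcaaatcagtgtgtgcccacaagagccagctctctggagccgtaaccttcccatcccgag

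Pcdh8 and Pcdh19 each held CCAAT on the opposite strand, read as ATTGG, at positions -68 and -65 counted from 0 at the start. Of the 32851 start regions of this length in the table, 37.4% held CCAAT on one strand or the other. Pcdh8 also held TATAAA at position -30, a match found in 13.6% of start regions, and no CANNTG, which 72.3% held. CANNTG matched once in Pcdh19, as CAGTTG at position -189, and once in Cdh6, as CACTTG at position -15. Of 5 genes with an entry, Pcdh7 alone matched CAGGTG, the E-box form that Snail and Zeb proteins bind, at position 32, against 20.2% of all start regions. AGGTGT, the core letters bound by T-box proteins, matched in 0 of the 5 and in 13.7% of all. TGGGAA, the core letters bound by Rbpj, the DNA-binding partner of Notch, matched in Cdh6 alone of the 5, at position 37 on the opposite strand, and in 25.6% of all. A match is a run of letters and not a measured site.

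Signals stood close to background for most of these probes. A probe was taken as detected on an array at a detection p under 0.01, meaning that its signal exceeded nearly all negative control probes of that array. Of the 24 probes, 10 were detected on no array (41.7%), beside 51.6% of the 34885 named probes, and 1 probe, for Cdh3, was detected on all 9 arrays. For the test, a probe had to be detected on every one of the 3 arrays of some region. That left 12437 probes of the array and 5 of the 24, which are 1 probe each for Cdh1, Cdh3, Cdh4, Cdh6 and Pcdh19. The Cdh3 probe passed through every region, those of Cdh1 and Cdh4 through the TBM and PSM, that of Cdh6 through the CNH and TBM, and that of Pcdh19 through the PSM alone. Entry by a bright region favours probes that differ between regions, so the 5 tested probes do not stand for all 10 genes.

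**Figure D1:**
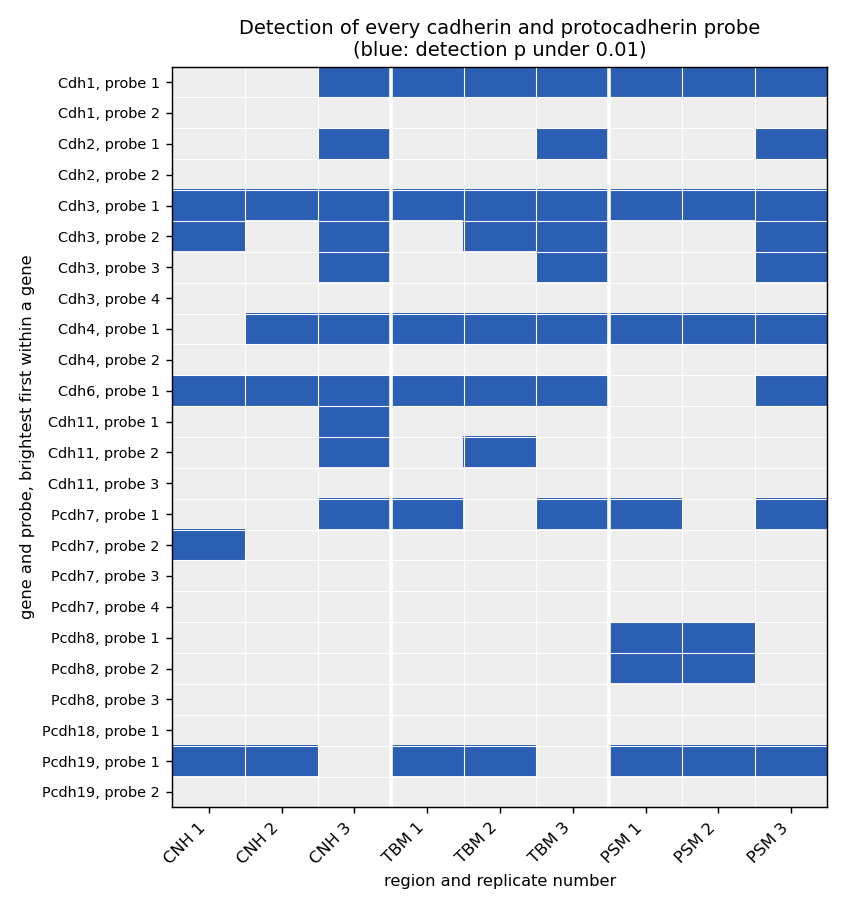
Detection of the 24 probes, 1 row each, on the 9 arrays, 1 column each, with blue for a detection p under 0.01. The first Cdh3 probe is blue throughout, and the first 2 Pcdh8 probes are blue on PSM arrays 1 and 2 and on no other array.

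Arrays of replicates 1 and 2 had median signals of 76.8 to 80.4, arrays of replicate 3 had 63.0 to 67.1, and 13621 to 14809 probes were detected on each. Replicate 3 of every region stood apart: after the mean of each region was removed, its arrays correlated with those of replicates 1 and 2 at -0.930 to -0.895 over the tested probes. The limma fit therefore took the replicate number as a block beside the means of the regions. Calls required a change of at least 1.5-fold and an adjusted p under 0.05, by Benjamini-Hochberg over the 12437 probes. Among markers, 7 of 7 of tailbud progenitors were called higher in the CNH and 6 of 7 in the TBM than in the PSM. Of tested somite markers 4 of 4 were lower, and 4 of 4 tested notochord markers were higher in CNH than in TBM arrays. The paper's list of CNH-enriched genes from these data holds Fgf8, Wnt3a, Cyp26a1, Evx1, Cdx2 and Fgf17 of the progenitor markers. The counts therefore describe the regions and are no independent check of the labels. The brightest tested probe stood for a gene, which gave 7820 named genes. Values below are background-corrected, quantile-normalized log2 signals of single probes, and levels of different probes are not set against each other.

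The CNH and TBM each differed from the PSM in 4 of the 5 tested genes, the same 4 in both comparisons, which share the PSM arrays. Cdh6 was higher, and Cdh1, Cdh4 and Pcdh19 were lower. Between CNH and PSM, 12.3% of the 7820 named genes were called (7.43% higher in the CNH and 4.85% lower), beside 1 higher and 3 lower of these 5. Between TBM and PSM it was 10.5% (5.92% higher in the TBM and 4.54% lower), beside the same counts. Since the genes were picked with results known and entered the test through a bright region, these shares describe them and do not set them apart from other genes. The median log2 fold change of the 5 was -1.12 for CNH against PSM, beside -0.04 over all named genes, and -0.77 for TBM against PSM, beside -0.02. The 3 values of each region did not overlap for Cdh4, Cdh6 and Pcdh19 in either comparison, which held for 14.5% of named genes in the CNH comparison and 13.3% in the TBM comparison. The 3 replicate numbers had the same direction for 4 of the 5 genes against the PSM, beside 49.6% of named genes for the CNH and 49.9% for the TBM. Between CNH and TBM, 0 of the 5 were called by limma, beside 1.2% of named genes, the arrays of both regions overlapped for all 5, beside 5.19% of named genes that did not overlap, and 1 of 5 (Cdh3) had the same direction in all replicate numbers, beside 38.2%. At an unadjusted p under 0.05 the count was also 0 of 5. Without the replicate block, Pcdh19 alone kept its call in CNH against PSM (adjusted p 0.0484 in limma), and each other call was lost, that of Pcdh19 in TBM against PSM at an adjusted p of 0.0591. In pools of tissue, fewer cells of a type and less RNA per cell cannot be told apart.

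**Figure D2:**
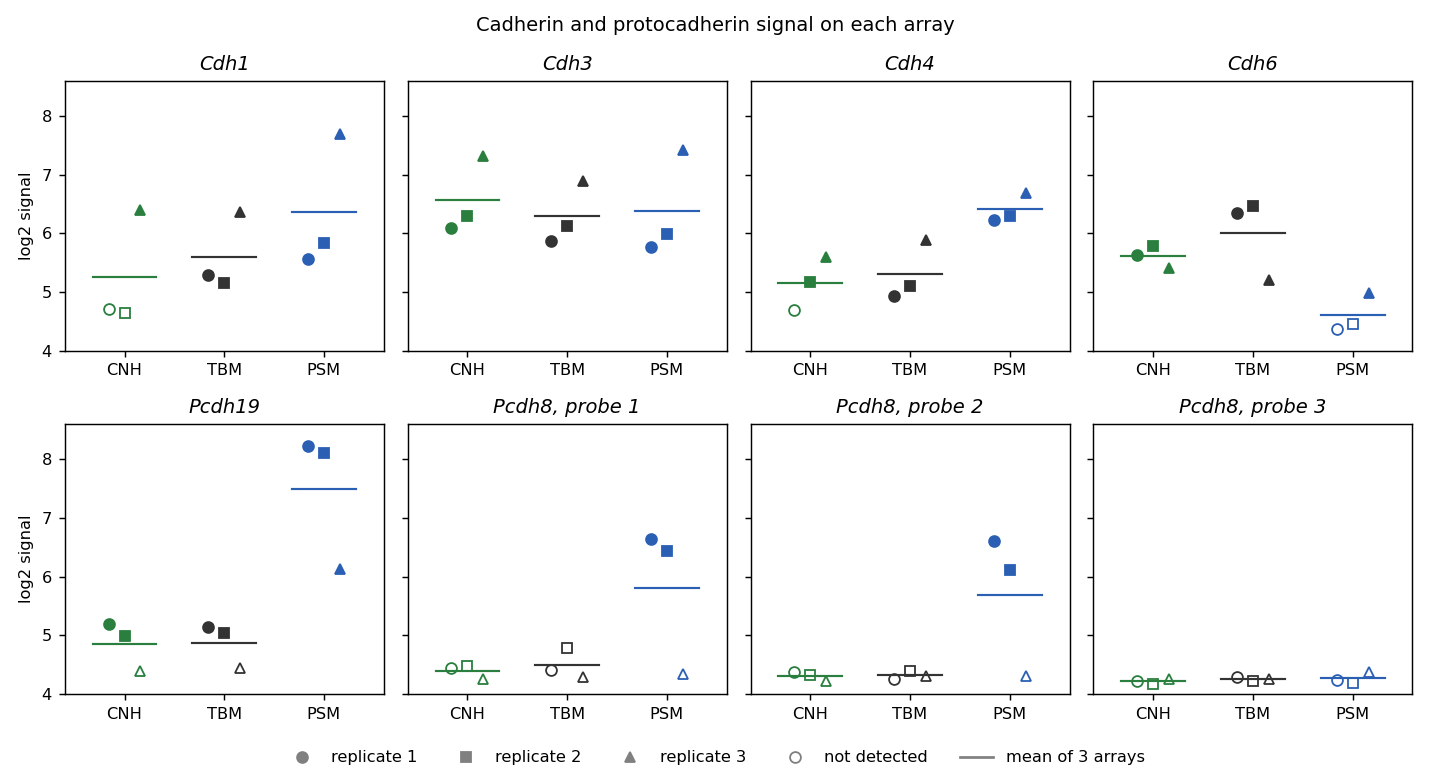
Normalized log2 signal of 8 probes on each of the 9 arrays, by region, with circles, squares and triangles for replicates 1, 2 and 3, open where the probe was not detected, and a line for the mean of 3 arrays. Pcdh19 in the PSM sits at 8.24, 8.11 and 6.13, above every CNH and TBM array, and replicate 3 departs from the other two arrays of its region for most probes.

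Pcdh19 had the largest fold change of the 5 tested genes in both comparisons with the PSM. Its tested probe had deposited signals of 96.6, 88.0 and 64.3 on CNH arrays 1, 2 and 3, of 92.4, 89.4 and 64.8 on TBM arrays, and of 296.7, 295.0 and 115.6 on PSM arrays. After normalization these were 5.19, 4.99 and 4.40 in the CNH, 5.14, 5.04 and 4.44 in the TBM, and 8.24, 8.11 and 6.13 in the PSM on the log2 scale. Every PSM array was above every array of the other regions, and replicate 3 was the lowest within each region. The fold change was -2.63 (log2, SE 0.26, 95% interval -3.21 to -2.06) for CNH against PSM. TBM against PSM gave -2.62 (95% interval -3.20 to -2.04). The probe entered the test through the PSM alone, where it is bright, so p-values of the filtered fit are not given as support. Within replicate numbers 1, 2 and 3 the difference of CNH from PSM was -3.05, -3.12 and -1.73. The probe was not detected on CNH array 3 or TBM array 3, so the differences of that number are set by background. Without the filter the probe was still called, at an adjusted p of 0.00381 for the CNH and 0.0045 for the TBM in limma. The other Pcdh19 probe was detected on no array, at 4.29 to 4.53 throughout, and shows no such pattern.

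Pcdh8 had the same kind of pattern on fewer arrays. Its first probe had deposited signals of 79.4, 78.3 and 56.7 in the CNH, 76.6, 84.0 and 57.9 in the TBM, and 144.3, 140.5 and 58.3 in the PSM. On the log2 scale these became 4.44, 4.48 and 4.26 in the CNH, 4.41, 4.77 and 4.29 in the TBM, and 6.64, 6.44 and 4.34 in the PSM. A second probe read 4.38, 4.33 and 4.22 in the CNH, 4.26, 4.38 and 4.31 in the TBM, and 6.60, 6.12 and 4.31 in the PSM. Both probes were detected on PSM arrays 1 and 2 and on no other array, so PSM array 3 lay among the CNH and TBM arrays and the regions overlapped. The third probe was detected on no array, at 4.18 to 4.37. With 2 of 3 PSM arrays detected, Pcdh8 stayed outside the test. Each CNH and TBM array was then raised to at least its lowest detected signal. The PSM mean of the first probe was 1.92-fold the CNH mean and 1.86-fold the TBM mean, and that of the second 1.75-fold and 1.70-fold. The PSM mean includes array 3, where neither probe was detected, so these values are not lower bounds. In replicate number 3 the first probe differed by -0.08 (CNH against PSM) and -0.05 (TBM against PSM). With the filter removed, the limma fit over all 45281 probes gave a log2 fold change of -1.41 for CNH against PSM (adjusted p 0.158) and -1.32 for TBM against PSM (adjusted p 0.234), neither called. Filters that let Pcdh8 into the test do so through PSM arrays 1 and 2 alone, where it is bright, so their p-values are not given as support.

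The tested somite markers, and Ripply2 among markers of the segmenting front, were also lower in the CNH and TBM than in the PSM. All 4 tested of 7 somite markers were called lower in the CNH and in the TBM than in the PSM, with a summed linear signal of 188 to 512 in the CNH, 211 to 596 in the TBM and 1799 to 6854 in the PSM, while Pax1 and Tbx18 were detected on no array. Ripply2, a repressor made where the next somite will form, read 8.56, 8.69 and 5.66 in the PSM and was detected on no CNH or TBM array, which puts it at least 6.82-fold lower in the CNH and at least 6.61-fold lower in the TBM. Meox1, a somite transcription factor, read 7.58, 7.71 and 4.91 in the CNH, 7.54, 7.37 and 4.56 in the TBM, and 11.59, 11.64 and 8.19 in the PSM. Of the 4 somite markers, Meox1, Tcf15 and Meox2 were lower on PSM array 3 than on the other PSM arrays, and Foxc2 was level at 8.13, 8.09 and 8.06. Meox1 and Tcf15 were lower on array 3 in the CNH and TBM as well. The part that the somites or segmenting tissue held in each piece played in the protocadherin values was not tested. Of 7 markers of presomitic and segmenting mesoderm 3 were tested, and Ripply2 and Dll1, a Notch ligand, were called lower in the CNH and Ripply2 in the TBM. Ripply2 entered the test through the PSM alone, so its calls are not given as support. The summed linear signal of the tested markers overlapped between regions, at 801 to 1180 in the CNH, 1011 to 1585 in the TBM and 822 to 1698 in the PSM. Ripply2 was also lower on PSM array 3, and Dll1 on array 3 of every region. Lfng was detected on no array and Msgn1 had no probe. Tbx6, a marker of the whole presomitic mesoderm, was not called, at 0.12 in the CNH and 0.54 in the TBM, each against the PSM, the second under the fold threshold at an adjusted p of 0.00873 in limma, and read 9.50, 9.58 and 9.49 on the PSM arrays.

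Cdh4, also called R-cadherin and known from retina, brain and muscle, was lower in the CNH and in the TBM than in the PSM. Its probe read 4.70, 5.16 and 5.59 in the CNH, 4.93, 5.10 and 5.88 in the TBM, and 6.23, 6.31 and 6.69 in the PSM. All PSM arrays were above all others, and replicate 3 was the highest in each region. The log2 fold change was -1.26 for CNH against PSM (SE 0.13, 95% interval -1.55 to -0.97, adjusted p 9.8e-05 in limma) and -1.11 for TBM against PSM (95% interval -1.40 to -0.81, adjusted p 0.000278). The probe was detected on 2 of 3 CNH arrays and on all others, and the second Cdh4 probe was detected on none.

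Cdh1, the E-cadherin of epithelia, was lower in the CNH and TBM within each replicate number, although its arrays overlapped across numbers. The tested probe read 4.71, 4.64 and 6.40 in the CNH, 5.29, 5.16 and 6.36 in the TBM, and 5.57, 5.83 and 7.70 in the PSM, and was detected on 1 CNH array, all TBM arrays and all PSM arrays. Replicate 3 was the brightest in every region, and CNH array 3 was above PSM arrays 1 and 2. The difference of CNH from PSM was -0.86, -1.19 and -1.31 in replicate numbers 1, 2 and 3, of which the first 2 are set by background because CNH arrays 1 and 2 did not detect the probe. The fitted log2 fold change was -1.12 (SE 0.17, 95% interval -1.51 to -0.73, adjusted p 0.00135 in limma). For TBM against PSM the differences were -0.28, -0.67 and -1.35, and the fit gave -0.77 (95% interval -1.16 to -0.38, adjusted p 0.0143 in limma). This call was lost, at -0.53 (adjusted p 0.0613) without TBM array 3, at -0.77 (0.0538) without PSM array 2, at -0.58 (0.0569) without PSM array 3, and at -0.48 (0.0587) without replicate 3 of every region.

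Cdh1 is a marker of surface ectoderm, and some other markers of that layer were lower with it while others were higher or not called. Of 12 tested of 17 markers of surface ectoderm and epithelium, 5 were called lower and 2 higher in the CNH than in the PSM, and 6 lower and 1 higher in the TBM. Their summed linear signal was 1745 to 2166 in the CNH, 1511 to 1659 in the TBM and 2446 to 3151 in the PSM. Krt14, a keratin of basal epidermis, read 5.22, 5.56 and 5.07 in the CNH, 5.65, 5.79 and 5.27 in the TBM, and 8.29, 8.20 and 8.30 in the PSM. Trp63, the transcription factor of stratified epithelia, was lower at -3.11 in the CNH and -2.52 in the TBM, each against the PSM. Krt19 went the other way, detected on no PSM array and at least 2.21-fold higher in the CNH and at least 2.42-fold higher in the TBM. Epcam, Spint2 and Crb3 were detected on no array. Of 10 gut endoderm markers 4 were tested. Against the PSM, 3 were called higher and 0 lower in the CNH, and 2 higher and 0 lower in the TBM. The part that adhering ectoderm or gut endoderm played in the Cdh1 values was not tested.

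Cdh3, the P-cadherin of placenta and epidermis, did not pass the test between any regions. Its brightest probe was detected on all 9 arrays and read 6.09, 6.29 and 7.32 in the CNH, 5.86, 6.14 and 6.89 in the TBM, and 5.76, 5.99 and 7.43 in the PSM. All 3 regions overlapped, and replicate 3 was the brightest of each. The log2 fold change was 0.18 for CNH against PSM (95% interval -0.14 to 0.49, adjusted p 0.430 in limma) and -0.10 for TBM against PSM (95% interval -0.41 to 0.22, adjusted p 0.730). Both intervals end short of a 1.5-fold change. The other Cdh3 probes were detected on 5 arrays, 3 arrays and no array.

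Cdh6, a type II cadherin known from the neural folds and the developing kidney, was the one gene of the 5 that was higher in the CNH and TBM. Its single probe had deposited signals of 109.8, 107.1 and 98.4 in the CNH, 132.9, 138.1 and 87.0 in the TBM, and 74.0, 80.1 and 75.6 in the PSM. The log2 values were 5.64, 5.78 and 5.41 in the CNH, 6.35, 6.47 and 5.21 in the TBM, and 4.37, 4.46 and 4.99 in the PSM. The regions did not overlap with the PSM, where the probe was detected on 1 of 3 arrays, and in replicate 3 the regions lay closest together. The log2 fold change was 1.41 for TBM against PSM (SE 0.28, 95% interval 0.77 to 2.04), with differences of 1.98, 2.01 and 0.23 in replicate numbers 1, 2 and 3. PSM arrays 1 and 2 did not detect the probe, so the first 2 differences are set by background and are not measured sizes. Without replicate 3 of every region the value was 2.00, which rests on those 2 differences alone. The probe entered the test through the CNH and TBM alone, where it is brighter, so p-values of the calls are not given as support. The TBM call was lost in 4 of 21 alternatives, among them with replicates 1 and 2 averaged (1.11, adjusted p 0.0561 in limma) and without the filter (adjusted p 0.0890). For CNH against PSM the gene was called at 1.01 (95% interval 0.37 to 1.64), with differences of 1.28, 1.32 and 0.42. That call was lost in 11 of 21 alternatives, among them on leaving out CNH array 1 (adjusted p 0.0963), CNH array 2 (0.0947), CNH array 3 (0.0987), PSM array 1 (0.140) or PSM array 2 (0.149), on averaging replicates 1 and 2 (0.121), and without the filter (0.196). Neural tube markers stood higher in the CNH: all 3 tested of 10 were called higher there than in the PSM, and 1 of 3 in the TBM, with a summed linear signal of 236 to 336 in the CNH, 155 to 407 in the TBM and 83.1 to 119 in the PSM. Between CNH and TBM, 2 of the 3 were called higher in the CNH and 0 lower, while Cdh6 was at -0.40 there and was not called. Sox1, Sox3, Pax6, Pax3, Olig2 and Nkx6-1 were detected on no array. The part of neural tissue in the Cdh6 values was not tested.

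Between CNH and TBM the 5 tested genes gave log2 fold changes of -0.35 for Cdh1 (95% interval -0.74 to 0.04), 0.27 for Cdh3 (-0.04 to 0.59), -0.15 for Cdh4 (-0.44 to 0.14), -0.40 for Cdh6 (-1.03 to 0.23) and -0.01 for Pcdh19 (-0.59 to 0.56). The adjusted p of these 5 was 0.457 to 0.989 in limma. Cdh6 was lower in the CNH than in the TBM in replicate numbers 1 and 2, by differences of -0.71 and -0.69, and higher in number 3, by 0.20. Without replicate 3 of every region it was called, at -0.70 (adjusted p 0.0448 in limma). That fit holds replicates 1 and 2 alone, and the labels do not say which array was technical. With replicates 1 and 2 averaged and replicate 3 kept, Cdh6 was at -0.25 and was not called (adjusted p 0.980 in limma). The interval of Cdh4 ends short of a 1.5-fold change and those of Cdh1, Cdh3, Cdh6 and Pcdh19 reach it, so a p above the threshold does not show that these regions were alike.

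**Figure D3:**
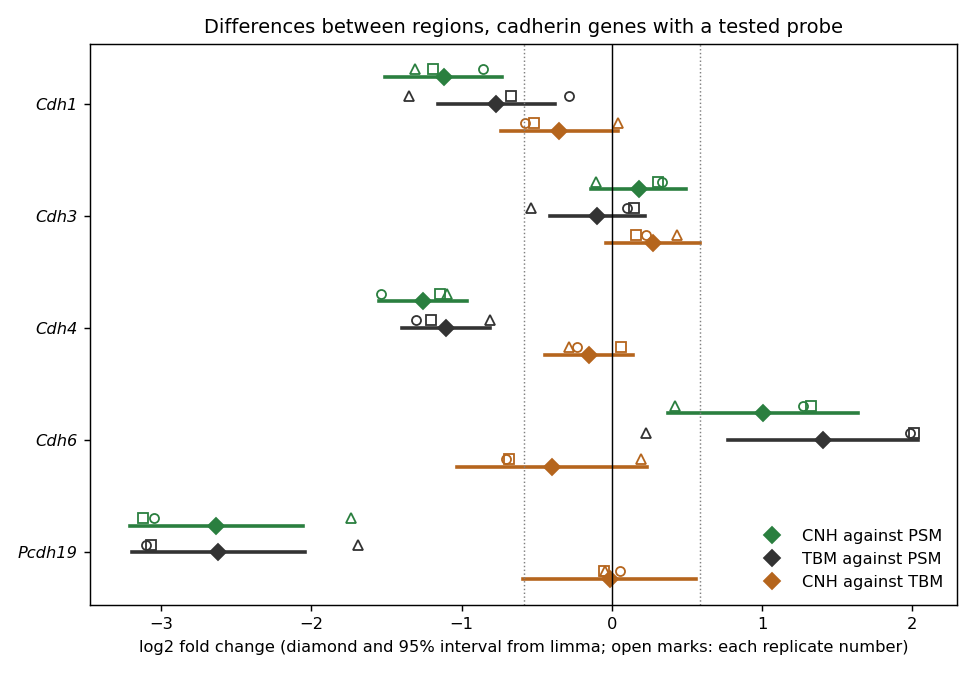
Log2 fold change of the 5 tested genes in 3 comparisons, with diamonds and bars for the limma estimate and its 95% interval, open circles, squares and triangles for replicate numbers 1, 2 and 3, and dotted lines at a 1.5-fold change. Pcdh19 lies near -2.6 against the PSM and near 0 between CNH and TBM, and the triangles of Cdh6 and Pcdh19 lie nearer 0 than the other marks in both comparisons with the PSM.

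The other 4 genes were at or near background. Cdh2, the N-cadherin of mesoderm and neural tissue, had 1 probe detected on array 3 of each region and on no other, at 4.28, 4.53 and 4.85 in the CNH, 4.28, 4.31 and 4.92 in the TBM, and 4.30, 4.27 and 5.05 in the PSM. The other Cdh2 probe was detected on no array. No level of Cdh2 can therefore be compared between regions here. Cdh11, a cadherin of mesenchyme and bone, had 2 of 3 probes detected on CNH array 3, 1 of them also on TBM array 2, and no probe detected in the PSM. Pcdh7, a protocadherin of heart and brain, had a probe that read 4.86, 4.78 and 5.42 in the CNH, 5.01, 4.70 and 5.69 in the TBM, and 4.96, 4.74 and 5.77 in the PSM, detected on 1, 2 and 2 arrays of these regions. Without the filter its log2 fold change was -0.14 for CNH against PSM (adjusted p 0.613 in limma) and -0.03 for TBM against PSM (adjusted p 0.963). The single Pcdh18 probe was detected on no array, at 4.20 to 4.45.

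Over the 9 arrays, with the mean of each replicate number removed, Cdh4 and Pcdh19 correlated at 0.98, and Cdh6 correlated with them at -0.86 and -0.91. Cdh3 correlated with the other 4 genes at -0.30 to 0.31. These values describe 9 arrays whose tissue pools and hybridisations the genes share, and they carry no test. By the same measure, the named genes most like Pcdh19 were Fgf18 (r 0.999), Mesp1 (0.999) and Astn1 (0.998). Mesp1 encodes a transcription factor of early mesoderm, and its log2 fold change was -3.71 in the CNH and -3.58 in the TBM, each against the PSM. For Cdh4 they were Dab2ip, Olfml2b and Eif2b5 (0.994 to 0.995), for Cdh6 Arhgef12, Cetn4 and Tpm4 (0.982 to 0.989), and for Cdh1 Zfp385b, Luc7l3 and Maco1 (0.983 to 0.984). Each set is the top of 7820 genes ranked over 9 arrays.

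Few of the other genes of the superfamily could be tested. Of 12 other classical cadherins, Cdh5 alone, the cadherin of endothelium, was detected and tested, and it was not called, at 0.29 in the CNH and 0.30 in the TBM, each against the PSM. Among 58 clustered protocadherins, 54 had a probe, 15 were detected on some array, 2 were tested and 0 were called in any comparison. Other lists without a call were 8 other non-clustered protocadherins (2 tested) and 12 Fat, Dachsous, Celsr and calsyntenin genes (3 tested). Of 8 atypical cadherins 3 were tested and each was called in the TBM against the PSM, beside 10.5% of named genes. Cdhr1, a cadherin of photoreceptors, was higher there, at 7.14, 7.13 and 8.24 in the TBM against 5.83, 6.25 and 7.22 in the PSM (1.07, adjusted p 0.000496 in limma). Cdh13, a cadherin anchored by a lipid and lacking an inner part, was detected on all 3 PSM arrays and on no other. That puts it at least 1.58-fold lower in the CNH and at least 1.53-fold lower in the TBM. It entered the test through the PSM alone, where it is bright, so its p-values are not given as support. Cdhr5 was called higher in the TBM on a bound of at least 1.15-fold, and it likewise entered the test through the TBM alone.

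Counts of called partners of cadherins inside the cell stand beside 12.3% of named genes called in CNH against PSM and 10.5% in TBM against PSM. Of 18 catenins and adherens junction proteins, 9 were tested and 1 was called. Ctnnb1 (β-catenin) had a log2 fold change of 0.04 in the CNH and 0.01 in the TBM, each against the PSM, and Ctnna1 (α-catenin) of 0.01 and 0.02. Afdn, the afadin that ties nectins to actin, was lower in the CNH (-0.70, adjusted p 0.00501 in limma) and in the TBM (-0.68, adjusted p 0.00673). Of 10 desmosomal genes 2 were tested, and Pkp2, a plakophilin, was higher in CNH arrays than in PSM arrays (0.74, adjusted p 0.00399). Of 9 genes of the WAVE complex, which drives actin branching and binds several protocadherins, 5 were tested and Abi2 was lower in the TBM than in the PSM (-0.67, adjusted p 0.00137). Of 8 enzymes that cut cadherins 6 were tested. Psen2, a catalytic part of γ-secretase, was higher in the CNH (0.79) and the TBM (0.59). It entered the test through those regions alone, so its p-values are not given as support. Aph1a, another part, was higher in the TBM (0.68, adjusted p 0.00134 in limma).

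Of 13 genes that regulate cadherin genes or the splicing of epithelia 7 were tested. Against the PSM, 4 were called lower and 0 higher in the CNH, and 4 lower and 2 higher in the TBM. Over all named genes, 4.85% were called lower and 7.43% higher in the CNH, and 4.54% lower and 5.92% higher in the TBM. Snai2, a repressor of Cdh1, read 5.19, 4.96 and 4.72 in the CNH, 4.41, 4.78 and 4.92 in the TBM, and 6.30, 6.33 and 6.10 in the PSM. All PSM arrays were above all others, with log2 fold changes of -1.28 (CNH against PSM) and -1.54 (TBM against PSM). The Snai2 probe entered the test through the PSM alone, so its p-values are not given as support. Twist1, which acts on mesenchyme and also represses Cdh1, read 5.21, 5.65 and 5.38 in the CNH, 5.22, 5.18 and 5.17 in the TBM, and 6.94, 7.11 and 6.20 in the PSM (-1.34 and -1.56). Zeb2, another such repressor, was also lower (-0.97 and -0.74). Esrp1, a splicing factor of epithelia, was lower at -1.22 and -1.36. Snai2, Twist1, Zeb2 and Cdh1 were each lower in the CNH and TBM than in the PSM. The part of the repressors in the Cdh1 values was not tested. Snai1, named after its values were seen, read 7.11, 7.02 and 6.45 in the CNH, 8.06, 8.04 and 7.32 in the TBM, and 7.01, 7.31 and 6.81 in the PSM. It was lower in the CNH than in the TBM (-0.95, adjusted p 0.0107 in limma) and higher in the TBM than in the PSM (0.76, adjusted p 0.00229). It was the 1 gene of all these lists of cadherin relatives, partners and regulators that was called between CNH and TBM. Twist2, likewise named afterwards, was higher in the TBM than in the PSM (0.80).

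**Figure D4:**
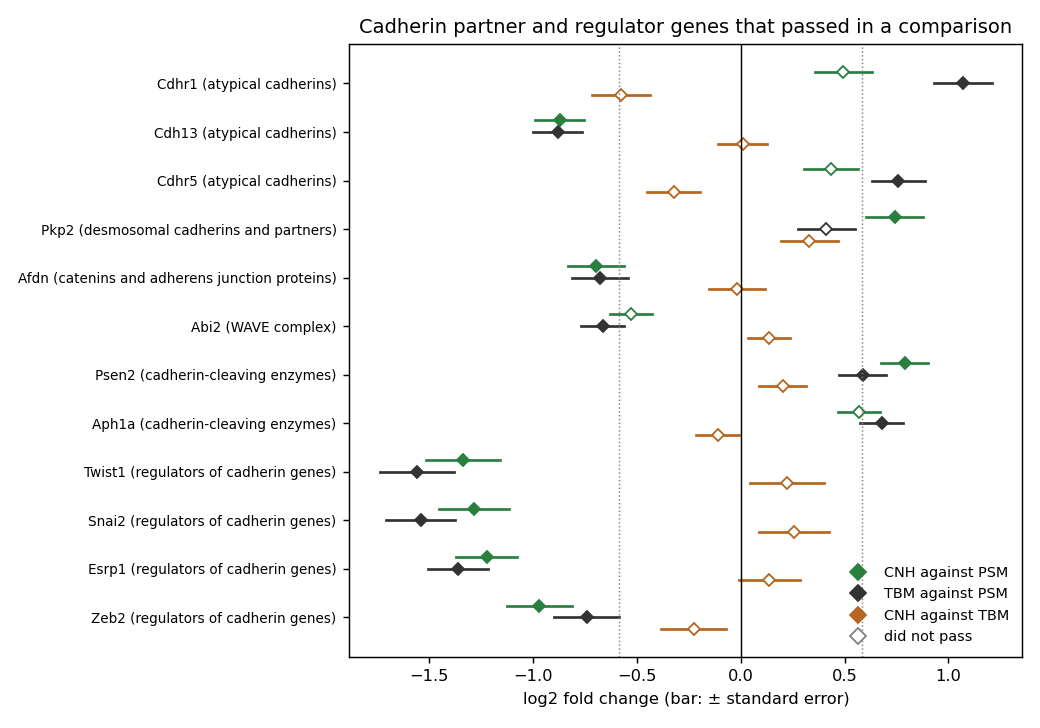
Log2 fold change of 12 genes from the lists of cadherin relatives, partners and regulators, with bars for the standard error, filled diamonds where a comparison was called, open ones where it was not, and dotted lines at a 1.5-fold change. Twist1, Snai2, Esrp1 and Zeb2 lie left of the dotted line in both comparisons with the PSM, and no diamond for CNH against TBM is filled.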

How the data were processed

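Values came from the deposited table of non-normalized data, with a signal intensity on a linear scale and a detection p-value for each probe and array. Per the labels, biotin-labelled cRNA was hybridised. A second deposited table holds values on a log2-like scale that the authors made from these signals with lumi (VST and RSN), and served as an alternative. Probes were named from GEO's platform annotation (34885 with 1 symbol, 18 with several, 10378 with none).

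Background was corrected by neqc, with an offset of 16 and the controls inferred through the detection p-values, and signals were quantile normalized in R 4.3.3 with limma 3.58.1. Tests covered probes whose detection p was under 0.01 throughout the 3 arrays of a region, in a model of region means blocked by replicate number over 9 arrays (4 residual degrees of freedom). The numbers come from the sample titles, and region-centred arrays of the same number correlated at 0.858 to 0.964. Those of number 1 against number 2 correlated at 0.863 to 0.893, so these values do not set numbers 1 and 2 apart. Genes undetected throughout the dimmer region had their fold bounded from below against the higher of its own value and the lowest detected value of each dim array. The brighter side was the mean of its 3 arrays, detected or not. All 10 genes were named with every probe, and up to 4 called genes per list with the largest change. Genes and lists were chosen with earlier results of these data known. The fit was tested on simulated data. Alternatives changed the block, values, background, filter and probes, left out arrays, or averaged pairs of replicates. The number of arrays limits the precision. Start regions are RefSeq's, and 5 of the 10 genes had an entry.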

Additional observations from a re-analysis of the deposited data

How the results depend on the processing

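Calls of Pcdh19 changed least across the alternatives that tested it. CNH against PSM was called in all 21 (highest adjusted p 0.0484 in limma, without the replicate block). TBM against PSM was called in all but the fit without that block (adjusted p 0.0591). In most of them Pcdh19 entered the test through the PSM alone, where it is bright, so their number is not given as support. Without the filter it was called in both comparisons, and with probes detected on all 9 arrays it was not tested. Without the replicate block, 351, 268 and 0 probes were called for CNH against PSM, TBM against PSM and CNH against TBM, beside 1393, 1172 and 125 (the 0 of limma stands beside 229 at an unadjusted p under 0.05), and 1 and 0 of the 5 tested genes were called against the PSM, beside 4 and 4. The authors' deposited values, whose fold changes were smaller (-0.70 for Pcdh19 in CNH against PSM, beside -2.63), gave 279, 242 and 15 probes, with 1 and 1 gene. Without background correction the counts were 734, 615 and 60 probes, with 2 genes for TBM against PSM, and an offset of 50 gave 884 and 749 against the PSM. Without the filter, 2 genes were called for TBM against PSM and 20 probes for CNH against TBM. Probes detected on all 9 arrays gave 897, 762 and 76 probes and 0 and 0 genes, since Cdh3 alone was then tested. Averaging replicates 1 and 2 gave 31 probes between CNH and TBM, and leaving out 1 array gave 18 to 172. Without replicate 3 of every region 1 gene (Cdh6) was called between CNH and TBM, as it was when the probes detected on both other arrays were taken, a setting chosen after the data were seen. Cdh6 lost its call for CNH against PSM in 11 of 21 alternatives and for TBM against PSM in 4. Cdh1 lost its call for TBM against PSM in 10 and for CNH against PSM in 2, and Cdh4 in 3 and 2. The cause was not tested. Uncalled values changed sign for Pcdh19 between CNH and TBM, at 0.0017 with deposited values, 0.00105 without replicate 3 of every region (the same with the probes detected on both other arrays), 0.0024 with replicates 2 and 3 averaged and -0.23 to 0.23 leaving out 1 array, and for Cdh3 between TBM and PSM, at 0.13 without replicate 3 of every region and -0.19 to 0.0855 leaving out 1 array. Most of these probes lie near background, where differences depend on the offset.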
